A study of Mus musculus with 3 samples.

Results

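The genes of the vascular endothelial growth factor (VEGF) system were followed in 3 sorted mouse mammary cell libraries. The set has 9 genes, chosen by symbol: the receptors Kdr, Flt1 and Flt4, the co-receptors Nrp1 and Nrp2, and the ligands Vegfa, Vegfb, Vegfc and Pgf. All 9 were found among the 52661 genes of the deposited tables. The ligand Vegfd is given beside them.

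The 3 populations were labelled as PROCR-positive mammary epithelial cells, PROCR being the protein C receptor, and shared a gate that was EpCAM positive and high in CD49f. The series title names TCF4, ID3 and a switch in mammary stem cell fate. The CD36+ population was CD36 positive and PDPN negative, and its title gives it as Cdh5 positive. The double-negative population was negative for CD36 and PDPN, and its title likewise gives it as Cdh5 positive. The PDPN+ population was CD36 negative and PDPN positive, with a title of Cdh5 negative. Each had 1 library of bulk RNA, so every comparison between the populations compares 1 library with 1 library and has no replicate error. The labels used here do not state age, strain, or how many mice and cells went into a library.

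VEGF ligands are secreted dimers that bind receptor tyrosine kinases, which are best known from the endothelium of blood and lymph vessels. Kdr (VEGFR2) carries most of the growth and permeability signal, Flt1 (VEGFR1) binds VEGF-A, VEGF-B and placental growth factor tightly and also exists as a soluble decoy, and Flt4 (VEGFR3) answers VEGF-C and VEGF-D. Neuropilins are co-receptors that VEGFs share with class 3 semaphorins. In many tissues the epithelium is a source of VEGF-A and the nearby vessels respond to it.

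Total estimated counts ranged from 51138993 to 67675778 per library. Levels are in CPM, the count scaled to a common library size by TMM, which also corrects for composition, and folds carry 95% exact counting intervals, which cover counting error only. A gene was counted as apart at a 4-fold ratio or more, given 10 CPM or more on the higher side. Of 10 pan-endothelial marker genes, all were at least 10 CPM in CD36+ and double-negative cells and 2 in PDPN+ cells, with summed levels of 4416, 3029 and 109.6 CPM and 1 marker, Robo4, at 0 counts in PDPN+ cells. Of 7 basal epithelial markers, 3, 5 and 7 reached 10 CPM in the same libraries, with summed levels of 75.2, 244 and 5589 CPM and none at 0 counts. In CD36+ cells the basal regulator Trp63 had 3 counts and the keratin Krt14 stood at 0.186 CPM, both at or near 0 in a library labelled as epithelial. In double-negative cells Trp63 stood at 34.1 CPM and Krt14 at 123 CPM, against 1753 and 1425 CPM in PDPN+ cells. Not all basal markers followed Trp63 and Krt14. Between CD36+ and double-negative cells 6 of the 7 were tested, with 1 at least 4-fold higher and 3 lower in CD36+ cells. Of all genes tested there, 12.2% were higher and 11.9% lower.

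CD36+ cells, set against PDPN+ cells, had higher levels of both VEGF-A receptors and both neuropilins, and a lower level of Vegfa. Of the 9 members, 5 were at least 4-fold higher, namely Kdr, Flt1, Nrp1, Nrp2 and Vegfc, and 1, Vegfa, was at least 4-fold lower. Of all 9387 genes with at least 10 CPM in either library, 15.1% were higher and 17.6% lower by the same rule. Flt4 lay within 4-fold, and Pgf and Vegfb were under 10 CPM in both libraries. The median log2 ratio of the 9 members was 4.31, or 4.95 without Vegfb, which was at or under 3 counts in both libraries, against -0.02 over all genes tested. At 2-fold Flt4 was added to the higher members, with a background of 25.3% higher and 28% lower. The summed pan-endothelial markers were higher and the summed basal markers lower in CD36+ cells in the same comparison, and their part in the member differences was not tested. In these bulk libraries, fewer cells of a type and less RNA per cell cannot be told apart.

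Double-negative cells were 4-fold apart from PDPN+ cells in the same members, with Pgf added, which in CD36+ cells missed the call by its level. Pgf was 62.6-fold higher in CD36+ than in PDPN+ cells (31.5 to 146) at 6.77 CPM, and with a minimum of 1 CPM that comparison also held 6 higher members. Here 6 of 9 members were at least 4-fold higher (Kdr, Flt1, Nrp1, Nrp2, Vegfc and Pgf) and 1, Vegfa, was lower, while Flt4 and Vegfb were under 10 CPM in both libraries. The background of this comparison was 14.9% higher and 19.3% lower of 9515 genes. The median log2 ratio of the members was 4.55, or 4.18 with Vegfb at the bound set by its 0 counts in PDPN+ cells, against -0.11 over all genes tested. At 2-fold the members called stayed 6 and 1, with a background of 25.4% higher and 30.2% lower. Both comparisons share PDPN+ cells, so they are not independent.

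Between CD36+ and double-negative cells 8 of the 9 members reached 10 CPM in either library, and 0 of these were 4-fold apart. Of the 8968 genes tested there, 24.2% were apart, 12.2% higher and 11.9% lower in CD36+. Vegfb was under 10 CPM in both libraries and so was not tested, with 1 count in CD36+ cells and 37 in double-negative cells. At 2-fold, Flt4 and Nrp1 were higher and Pgf was lower in CD36+ cells, where 22.9% of genes were higher and 21% lower. The median log2 ratio of the members was 0.43, against 0.11 over all genes tested.

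**Figure D1:**
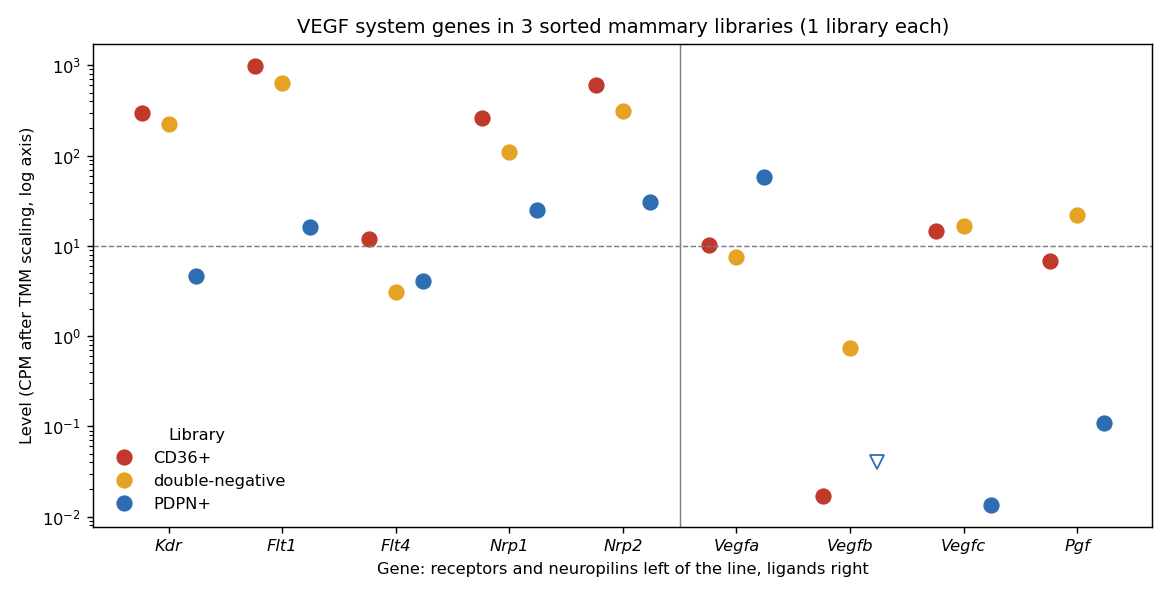
Levels of the 9 genes on a log axis, in CPM after TMM scaling, with 1 point per library; the dashed line marks 10 CPM, and the open triangle marks the floor of 3 counts for Vegfb, which had 0 counts in PDPN+ cells. Kdr, Flt1, Nrp1 and Nrp2 lie highest in CD36+ cells and lowest in PDPN+ cells, and Vegfa lies highest in PDPN+ cells.

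Kdr lies on chromosome 5, 75932827 to 75978458, minus strand of mm10. It stood at 298 CPM in CD36+ cells, 223 CPM in double-negative cells and 4.64 CPM in PDPN+ cells, from 17657, 11250 and 343 estimated counts. CD36+ and double-negative cells were close to each other and far above PDPN+ cells. CD36+ cells were 64.3-fold above PDPN+ cells (57.8 to 71.8), double-negative cells 48.0-fold above them (43.1 to 53.6), and CD36+ cells 1.34-fold above double-negative cells (1.31 to 1.37).

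Flt1 lies on the same chromosome, 147561604 to 147726011, minus strand, and was by TPM, a share of transcripts corrected for length, the most abundant member in CD36+ and double-negative cells. It stood at 986, 639.6 and 16.2 CPM in CD36+, double-negative and PDPN+ cells. The order of the libraries was that of Kdr. CD36+ cells were 61.0-fold above PDPN+ cells (57.6 to 64.7) and 1.54-fold above double-negative cells (1.52 to 1.56). By the deposited TPM, Flt1 stood at 183, 137 and 15.1, and its fold against PDPN+ cells was 12.1 in CD36+ cells and 9.03 in double-negative cells. For CD36+ over PDPN+ cells the CPM fold was 5.05 times the TPM fold for Flt1 and 1.40 times for Kdr.

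Flt4, the receptor best known from lymphatic endothelium (chromosome 11, 49609263 to 49652739, plus strand), was by TPM the receptor with the lowest level in all 3 libraries. It stood at 11.9 CPM in CD36+ cells, 3.09 CPM in double-negative cells and 4.12 CPM in PDPN+ cells. Only CD36+ cells passed 10 CPM. They were 2.88-fold above PDPN+ cells (2.52 to 3.31) and 3.85-fold above double-negative cells (3.23 to 4.61). Double-negative cells were 1.33-fold below PDPN+ cells (1.10 to 1.63).

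Lymphatic marker levels did not follow the order of Flt4. The 6 markers summed to 65.0, 3532 and 945 CPM in CD36+, double-negative and PDPN+ cells, with Mmrn1 at 0 counts in CD36+ cells. Prox1, the lymphatic fate regulator, stood at 18.1, 21.1 and 6.15 CPM, and Lyve1, the hyaluronan receptor of lymphatic capillaries, had 1, 2 and 14 counts. The chemokine gene Ccl21a stood at 3463 CPM in double-negative cells, against 34.4 CPM in CD36+ cells and 39.8 CPM in PDPN+ cells. The summed level of double-negative cells thus came mostly from Ccl21a, and that of PDPN+ cells from Pdpn, a gene of the sort, at 830.2 CPM.

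Promoter sequence is shown for the receptor genes Flt1 and Kdr, which had the largest folds among the receptors, and for Vegfa, the member that went the other way. Each run is the 250 bases before a RefSeq start site (build GRCm38.p6), on the gene's own strand. The capitals mark GGAAG or its complement CTTCC, a core bound by ETS factors, which include the endothelial factors Erg, Fli1 and Ets1.
Flt1, chr5:147726012-147726261, minus strand: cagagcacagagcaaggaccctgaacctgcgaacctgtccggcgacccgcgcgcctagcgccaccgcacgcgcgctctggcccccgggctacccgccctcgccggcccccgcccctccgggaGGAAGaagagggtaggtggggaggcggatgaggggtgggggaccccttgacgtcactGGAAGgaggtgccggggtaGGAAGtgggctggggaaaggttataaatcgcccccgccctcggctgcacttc
Kdr, chr5:75978456-75978705, minus strand: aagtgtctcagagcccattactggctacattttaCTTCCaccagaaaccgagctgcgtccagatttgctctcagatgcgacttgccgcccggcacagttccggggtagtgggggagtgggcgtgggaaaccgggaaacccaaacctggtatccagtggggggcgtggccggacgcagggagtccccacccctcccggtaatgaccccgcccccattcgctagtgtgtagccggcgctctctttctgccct
Vegfa, chr17:46032378-46032627, minus strand: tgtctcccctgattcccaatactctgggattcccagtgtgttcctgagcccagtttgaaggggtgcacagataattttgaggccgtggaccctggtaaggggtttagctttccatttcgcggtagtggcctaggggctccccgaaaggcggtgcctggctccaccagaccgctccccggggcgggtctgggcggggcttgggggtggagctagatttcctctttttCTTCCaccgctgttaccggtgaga

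The Flt1 window held 3 such matches, the Kdr window 1 and the Vegfa window 1, and 64.1% of all 32851 promoter windows of this length held at least 1 on either strand. Like it, the other motifs were searched on both strands. The GC box GGGCGG was found 3, 2 and 2 times in the same windows and in 32.7% of all windows. The cAMP response element TGACGTCA was found 1 time, in the Flt1 window, and in 1.55% of all windows. The E-box CANNTG, the core bound by E proteins such as TCF4, was found 1 time in the Kdr window and 0 times in the others, against 66.2% of all windows. The hypoxia response cores ACGTG and GCGTG were found 2 times in the Kdr window, 1 time in the Flt1 window and 0 times in this Vegfa window, against 38.6% of all windows. A further RefSeq start of Vegfa has a window at chr17:46025164-46025413, not printed here, which held 1 GGAAG match, 1 GC box, 2 E-boxes and 2 hypoxia response cores. These motifs may overlap each other, and a match is a description of letters only.

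Nrp1 lies on chromosome 8, 128358604 to 128503363, plus strand, and encodes a co-receptor for VEGF-A and for semaphorin 3A. It stood at 262, 109.5 and 24.8 CPM in CD36+, double-negative and PDPN+ cells. The libraries were spread more evenly than for Kdr and Flt1. CD36+ cells were 10.6-fold above PDPN+ cells (10.1 to 11.1) and 2.40-fold above double-negative cells (2.32 to 2.47). Double-negative cells were 4.42-fold above PDPN+ cells (4.19 to 4.66), a call that was lost at 3.76-fold under total-count scaling and at 3.92-fold by TPM.

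Nrp2, a co-receptor for VEGF-C and for semaphorin 3F (chromosome 1, 62703285 to 62818695, plus strand), was by TPM next to Flt1 in abundance in CD36+ and double-negative cells. It stood at 605, 309.9 and 30.5 CPM. CD36+ cells were 19.8-fold above PDPN+ cells (19.0 to 20.7) and 1.95-fold above double-negative cells (1.92 to 1.99), and double-negative cells were 10.2-fold above PDPN+ cells (9.71 to 10.6). An antisense gene that overlaps Nrp2, Gm29083, had 279, 2 and 1 estimated counts, and a same-strand transcript, Gm37121, had 170, 0 and 1, against 35836, 15648 and 2258 for Nrp2. The sources used here do not say whether the counting used strand, so reads of these overlapping genes may not be told apart.

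Vegfa, the main VEGF ligand (chromosome 17, 46016993 to 46032369, minus strand), was highest in PDPN+ cells. It stood at 10.2 CPM in CD36+ cells and 7.59 CPM in double-negative cells, against 57.7 CPM in PDPN+ cells. Vegfa was 5.65-fold lower in CD36+ cells (5.19 to 6.16) and 7.60-fold lower in double-negative cells (6.84 to 8.46). Between CD36+ and double-negative cells the ratio was 1.35 (1.18 to 1.53).

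Vegfc, on chromosome 8, 54077606 to 54187096, plus strand, encodes a ligand of Flt4 known for lymphatic growth. It stood at 14.7 CPM in CD36+ cells and 16.6 CPM in double-negative cells, and had 1 count in PDPN+ cells. The ratio to PDPN+ cells was 1088 for CD36+ cells (195 to 43027) and 1229 for double-negative cells (220.0 to 48598), and these wide intervals come from that 1 count. By TPM, Vegfc was at 7.16 in CD36+ cells, under the 10 used for a call. Vegfc was 1.13-fold lower in CD36+ than in double-negative cells (1.03 to 1.24) by CPM and 1.81-fold lower by TPM.

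Pgf, placental growth factor, a ligand of Flt1 (chromosome 12, 85166635 to 85177790, minus strand), was the ligand that differed most between Cdh5-positive cells among the ligands that reached 10 CPM. It stood at 6.77 CPM in CD36+ cells, 22.2 CPM in double-negative cells and 0.108 CPM in PDPN+ cells. CD36+ cells were 3.27-fold below double-negative cells (2.92 to 3.68). Double-negative cells were 205-fold above PDPN+ cells (104 to 476), where Pgf had 8 counts.

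Vegfb, another Flt1 ligand (chromosome 19, 6982473 to 6987651, minus strand), had 1, 37 and 0 estimated counts in CD36+, double-negative and PDPN+ cells. The CD36+ and PDPN+ libraries were under the floor of 3 counts, 0.0507 and 0.0406 CPM. With PDPN+ cells set at that floor, double-negative cells were at least 18.1-fold above them, and the lower counting limit was 14.0-fold. CD36+ cells were 43.4-fold below double-negative cells (7.32 to 1759). Vegfd lies on the X chromosome, 164373378 to 164402650, and encodes another ligand of Flt4. It stood at 6.18 CPM in CD36+ cells, had 3 counts in double-negative cells and stood at 1.10 CPM in PDPN+ cells. The CD36+ level was 104-fold the double-negative one (35.3 to 507), with Vegfd under 10 CPM throughout.

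**Figure D2:**
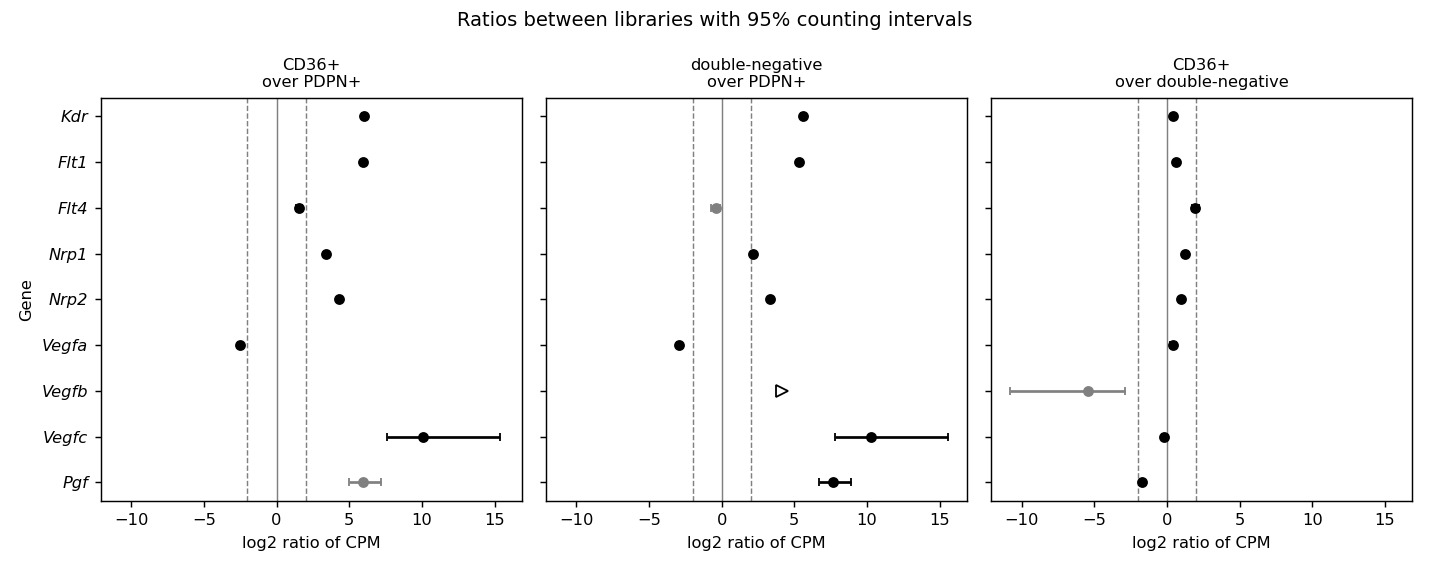
Log2 ratios of CPM for the 9 genes in the 3 comparisons, with 95% counting intervals; grey points are genes under 10 CPM in both libraries, the open triangle is a lower bound, dashed lines mark 4-fold, and Vegfb is not drawn where both libraries were under the floor. Against PDPN+ cells, Flt1 lies at 5.93 (CD36+) and 5.30 (double-negative) on the log2 scale, with Kdr just above it, and Vegfa lies below -2, while the members lie within 4-fold of each other between CD36+ and double-negative cells, apart from Vegfb at 1 against 37 counts.

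TPM allows levels of different genes to be set side by side. The receptors Flt1, Kdr and Flt4 summed to 242, 184 and 17.4 TPM in CD36+, double-negative and PDPN+ cells. Flt1 made up 75.5%, 74.2% and 86.8% of this sum, Kdr 23.6%, 25.5% and 7.16%, and Flt4 0.890%, 0.334% and 6.02%. Flt1 was thus the leading receptor transcript in each library, with a similar Kdr share in CD36+ and double-negative cells. By CPM the Flt1 share was 76.1%, 73.9% and 64.8%, so it was highest in PDPN+ cells by TPM and lowest there by CPM. The mean transcript length behind the Flt1 TPM of PDPN+ cells, given below, was under that of its coding transcripts.

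The neuropilins summed to 194, 103 and 18.7 TPM. Nrp1 held 46.0% and 43.0% of this sum in CD36+ and double-negative cells and 60.1% in PDPN+ cells, so the leading neuropilin was Nrp2 in Cdh5-positive cells and Nrp1 in PDPN+ cells.

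The ligands among the members summed to 16.9, 36.6 and 34.6 TPM and differed in makeup. Vegfa held 25.8% of the sum in CD36+ cells, 9.83% in double-negative cells and 99.6% in PDPN+ cells. Among the members Vegfc led in CD36+ cells, with 42.4%, and Pgf led in double-negative cells, with 52.2%. The summed receptor TPM was 14.3 times the summed ligand TPM in CD36+ cells, 5.04 times in double-negative cells and 0.504 times in PDPN+ cells. The ratio of PDPN+ cells rests mostly on their Flt1 TPM, with the length limit given above. Vegfd, which is not in these sums, stood at 7.65, 0.109 and 2.30 TPM, above Vegfc in CD36+ cells. By CPM, which is not corrected for length, Vegfd was below Vegfc there, at 6.18 against 14.7. The mean transcript length behind the Vegfd TPM, given below, was under that of its coding transcript in each library. With Vegfd added, a sum made after seeing the data, the receptor to ligand ratios were 9.87, 5.02 and 0.473, and they carry the same limit.

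**Figure D3:**
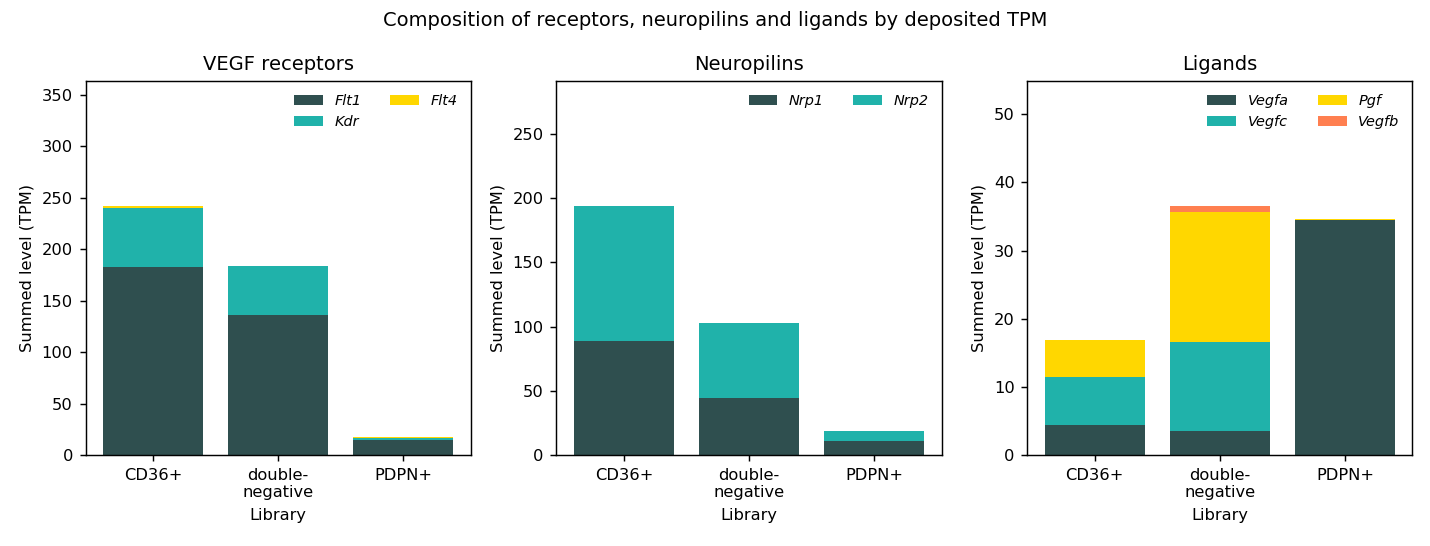
Stacked deposited TPM of the receptors, the neuropilins and the member ligands in each library, with a separate vertical scale per panel. Flt1 fills most of each receptor bar, and Vegfa fills 99.6% of the ligand bar of PDPN+ cells.

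The gap between the CPM and TPM folds of Flt1 was followed through the transcript lengths behind the TPM. Dividing the estimated count by the TPM gives, up to 1 constant per library, the mean effective length of a gene's transcripts, weighted by their abundance. For Flt1 this mean was 5922 bases in CD36+ cells, 5654 bases in double-negative cells and 1649 bases in PDPN+ cells. The GENCODE M21 annotation holds 2 coding Flt1 transcripts, of 6292 and 6895 bases, and 4 without a coding label, of 274, 395, 2030.0 and 2049 bases. The mean of PDPN+ cells was thus below the coding transcripts and that of the other libraries close to them. The Flt1 reads of PDPN+ cells numbered 1195, and how they were spread among the transcripts was not analysed here.

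Among the other receptors and Vegfa this length moved little between libraries. Kdr had 5732, 5744 and 5738 bases in CD36+, double-negative and PDPN+ cells, near its coding transcript of 5924 bases. Nrp2 had 6357, 6371 and 6312 bases, Nrp1 3234, 2985 and 3411 bases, and Vegfa 2568, 2546 and 2587 bases. Vegfc differed between Cdh5-positive cells, at 2258 bases in CD36+ cells and 1548 bases in double-negative cells, with annotated transcripts of 501, 555 and 2449 bases. Vegfd had 889, 739 and 732 bases, below its coding transcript of 2049 bases, and its other annotated transcript is a retained intron of 918 bases.

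**Figure D4:**
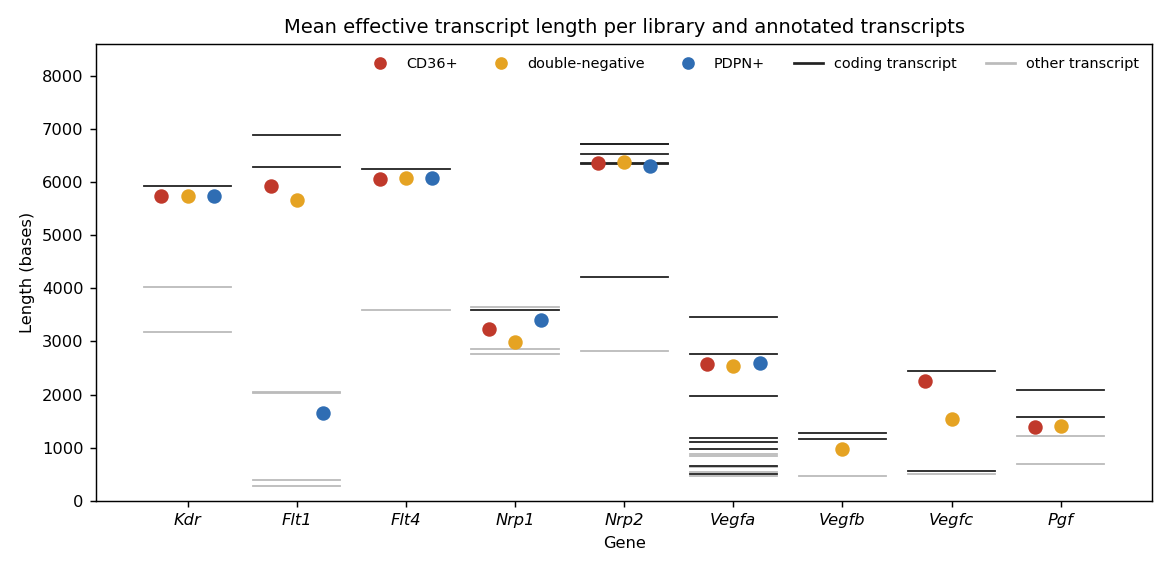
Mean effective transcript length in bases for each gene and library (points, drawn for at least 10 estimated counts), with annotated GENCODE M21 transcript lengths as lines, dark for coding and grey for other transcripts. The Flt1 point of PDPN+ cells lies at 1649 bases, below both coding transcripts.

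Transcription factors known to act on VEGF receptor genes were the pathway list with the highest median ratio in both comparisons with PDPN+ cells. Of 20 factors, 16 reached 10 CPM in either library. In CD36+ cells 12 were at least 4-fold higher than in PDPN+ cells and 0 lower, with a median log2 ratio of 4.92. Of all genes tested, 15.1% were higher and 17.6% lower. In double-negative cells 11 were higher and 0 lower, with a median of 5.05, where 14.9% of all genes were higher and 19.3% lower. Ets1 stood at 965, 676 and 19.0 CPM, Fli1 at 429.9, 204 and 5.06 CPM, and the venous and lymphatic regulator Nr2f2 at 407, 390.4 and 9.82 CPM in CD36+, double-negative and PDPN+ cells. Sox7, an endothelial SOX factor, stood at 296, 153 and 2.72 CPM. The endothelial cofactor Lmo2 had 0 counts in PDPN+ cells and stood at 108 and 99.1 CPM in the others. Hhex, a homeobox gene, stood at 43.4 and 50.8 CPM in the others and had 3 counts in PDPN+ cells. The forkhead gene Foxo1 lay within 4-fold, at 201, 162 and 319 CPM.

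The modulators of VEGF receptors that were 4-fold apart were all higher in the Cdh5-positive populations. Of 18, 12 reached 10 CPM in each comparison with PDPN+ cells. In CD36+ cells 7 were at least 4-fold higher and 0 lower (median log2 ratio 2.60), with the same numbers in double-negative cells (median 2.57). Over all genes tested the shares were 15.1% higher and 17.6% lower for CD36+ cells, and 14.9% and 19.3% for double-negative cells. Cdh5, the endothelial cadherin that associates with Kdr and the gene named in the titles, stood at 465, 206 and 0.176 CPM. Ptprb, the phosphatase VE-PTP, stood at 501.5, 352 and 6.88 CPM, and Mmrn2, a matrix protein that binds Cd93, at 326, 184 and 3.41 CPM. Cd93 itself stood at 1028, 727 and 18.5 CPM. Cdh5 here and Erg among the transcription factors are also pan-endothelial markers of the list above. Adam10, a sheddase of many surface proteins, stood at 252, 207 and 136 CPM.

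Among 20 genes known to be induced by VEGF in endothelium, 17 reached 10 CPM in CD36+ or PDPN+ cells, and 10 were at least 4-fold higher and 0 lower in CD36+ cells (median log2 ratio 2.29). Against PDPN+ cells double-negative cells had 8 higher and 0 lower of 15 (median 3.14). The shares of all genes were 15.1% higher and 17.6% lower for CD36+ cells, and 14.9% and 19.3% for double-negative cells. The calcineurin regulator Rcan1 stood at 483, 307 and 34.8 CPM, Angpt2, a ligand of the Tie2 receptor, at 279, 266 and 11.4 CPM, and Plvap, the diaphragm protein of endothelial pores, at 234, 96.7 and 10.9 CPM. Esm1, a secreted proteoglycan, stood at 44.4 and 14.3 CPM in CD36+ and double-negative cells and had 1 count in PDPN+ cells. Pdgfb, a growth factor that recruits pericytes, stood at 39.4 and 63.9 CPM against 2 counts, and the potassium channel subunit gene Kcne3 at 56.9 and 28.1 CPM against 0 counts. The prostaglandin synthase gene Ptgs2 stood at 34.0, 164 and 121 CPM. Other listed genes lay within 4-fold of PDPN+ cells in both comparisons, and those given next were named after their values were seen. Egr1 stood at 168, 45.0 and 64.4 CPM, Nr4a1 at 85.8, 40.2 and 28.4 CPM, and Trib1 at 149, 74.2 and 71.7 CPM. The pan-endothelial markers were higher in the same comparisons, and their part in these counts was not tested. Between CD36+ and double-negative cells 3 of 18 were 4-fold apart, where 24.2% of all genes were. With a list this short, no difference from that share is read. Cxcr4 (129-fold, 67.9 to 283) and Nid2 (7.30-fold) were higher and Ptgs2 was 4.83-fold lower in CD36+ cells. Cxcr4 and Nid2 were singled out after their values were seen.

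Signal transduction genes shared by many receptors were 4-fold apart in both directions. Their shares were not far from those of all genes tested, apart from a smaller share lower in CD36+ cells. Of 39, 32 reached 10 CPM in CD36+ or PDPN+ cells, with 6 at least 4-fold higher and 2 lower in CD36+ cells (median log2 ratio 0.50), where 15.1% of all genes were higher and 17.6% lower. Double-negative cells had 7 higher and 5 lower of 34 (median 0.33), where 14.9% of all genes were higher and 19.3% lower. The adaptor gene Nck1 stood at 578, 549 and 69.5 CPM, the SRC family kinase gene Fyn at 171, 166 and 13.8 CPM, and the endothelial nitric oxide synthase Nos3 at 16.5 and 29.7 CPM, against 3 counts in PDPN+ cells. Prkd2, a protein kinase D gene, stood at 74.4, 26.3 and 0.865 CPM, and Yes1, of the SRC family, at 594, 437 and 124.5 CPM. Src was at 0 counts in CD36+ cells, 2.02 CPM in double-negative cells and 10.9 CPM in PDPN+ cells. By TPM the direction of Src in double-negative over PDPN+ cells turned, at a ratio of 1.32, against 0.185 by CPM. Yes1 in CD36+ over PDPN+ cells was 4.77-fold by CPM and 3.05-fold by TPM, under 4-fold. The small GTPase genes Cdc42 and Rac1 lay within 4-fold, Cdc42 at 439, 601 and 424.5 CPM and Rac1 at 702, 425 and 228 CPM.

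Between CD36+ and double-negative cells 5 of 32 signal transduction genes were 4-fold apart, 2 higher and 3 lower in CD36+ cells. Of all genes tested there, 24.2% were apart, and no difference from that share is read. Pxn, Nfatc1 and Nfatc2 were named after their values were seen. Pxn (4.01-fold) and Nfatc1 (4.15-fold) were higher in CD36+ cells, and both calls were lost by TPM, at 3.64 and 3.74-fold, and under total counts, at 3.55 and 3.67-fold. Pxn was also lost under upper quartile scaling, at 3.97-fold, settings tried for these genes after seeing the data. Mapk14, the kinase p38 alpha, stood at 0.439 CPM in CD36+ cells, 34.3 CPM in double-negative cells and 37.3 CPM in PDPN+ cells. It was thus also 1 of the 2 genes lower in CD36+ than in PDPN+ cells. Nfatc2, a calcineurin-dependent transcription factor gene, had 4 counts in CD36+ cells and stood at 17.6 CPM in double-negative cells.

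Genes of the hypoxia response and of Vegfa mRNA control were counted in the same way. Of 13, 11 reached 10 CPM in CD36+ or PDPN+ cells, with 2 at least 4-fold higher and 1 lower in CD36+ cells (median log2 ratio -0.14), and 10 in double-negative or PDPN+ cells, with 2 higher and 0 lower (median 0.17). These counts of higher genes are close to the backgrounds of 15.1% and 14.9%, and 17.6% and 19.3% of all genes were lower. In either direction 32.7% and 34.2% of all genes were apart. With a list this short, no difference from these shares is read. Those higher were the hypoxia-inducible factor genes, Hif1a at 1454, 1209 and 166 CPM and Epas1 at 261, 198 and 20.2 CPM. Both were thus highest in CD36+ cells, and Vegfa in PDPN+ cells. Hnrnpl, an RNA-binding protein gene, stood at 3.85, 14.5 and 33.9 CPM. Elavl1, which encodes the mRNA-stabilising protein HuR, stood at 255, 172 and 322 CPM, and Zfp36, which encodes an mRNA decay factor, at 368, 164 and 113 CPM. Its relative Zfp36l1 stood at 519.9, 431 and 349 CPM.

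Neuropilins are also read by semaphorins, so their partners were counted. Of 12 class 3 semaphorin and plexin genes, 6 reached 10 CPM in CD36+ or PDPN+ cells, with 4 at least 4-fold higher and 1 lower in CD36+ cells (median log2 ratio 3.56). Double-negative cells had 3 higher and 2 lower of 5 (median 3.68). Of all genes, 15.1% were higher and 17.6% lower in CD36+ cells, and 14.9% and 19.3% in double-negative cells. Plxnd1, a plexin of endothelium, stood at 61.2, 38.9 and 0.243 CPM. Its fold of CD36+ over PDPN+ cells was 252 by CPM and 16.9 by TPM, and that of double-negative over PDPN+ cells 160 and 11.7, a wider gap than that of Flt1, with 18 counts in PDPN+ cells. Plxna2, an A-type plexin gene, stood at 282, 139.5 and 10.9 CPM. Another A-type plexin gene, Plxna4, stood at 19.5, 26.3 and 0.541 CPM. The ligand gene Sema3c stood at 33.3, 23.3 and 108 CPM, and Plxna1 had 2 counts in CD36+ cells, 2.54 CPM in double-negative cells and 11.6 CPM in PDPN+ cells.

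**Figure D5:**
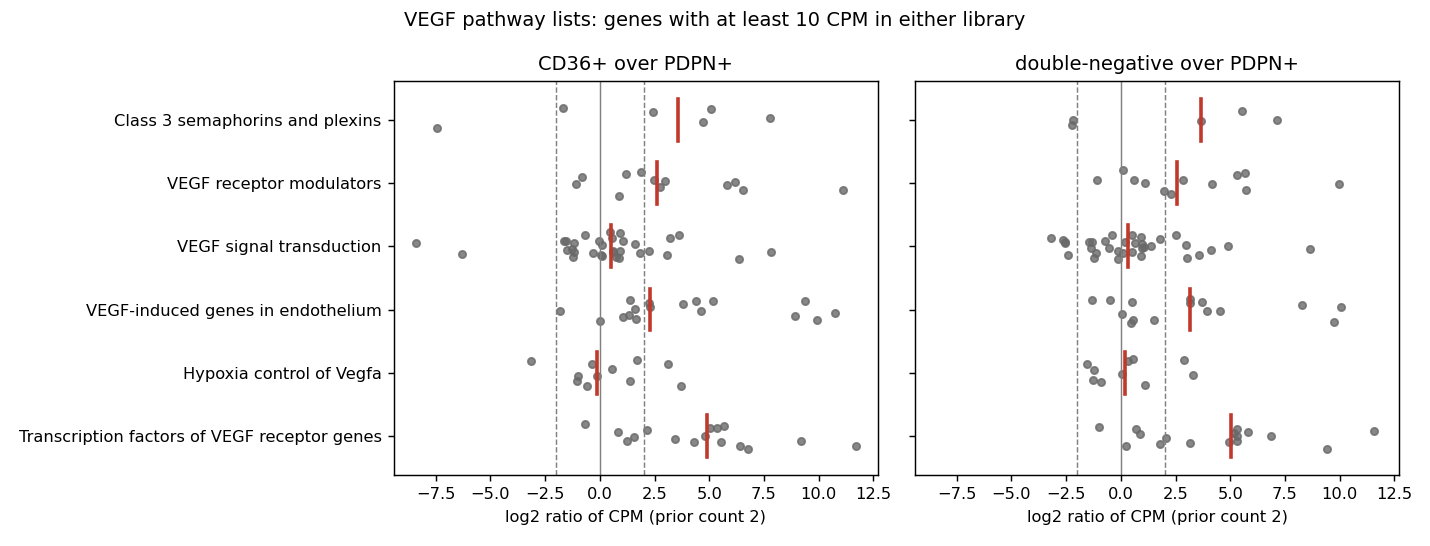
Log2 ratios of CPM (prior count 2) for the genes of 6 VEGF pathway lists that reached 10 CPM in either library, for CD36+ and double-negative cells over PDPN+ cells; 1 point per gene, red bars are medians and dashed lines mark 4-fold. The medians of the transcription factor list lie at 4.92 and 5.05, and those of signal transduction and hypoxia control lie between -0.14 and 0.50.

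Markers of other cell types were also present in the libraries, and their part in the member differences was not tested. Pericyte markers summed to 259, 189 and 70.6 CPM over 6 genes in CD36+, double-negative and PDPN+ cells, of which 2, 2 and 1 reached 10 CPM. The pericyte marker Kcnj8 was at 0 counts in double-negative cells. Fibroblast markers summed to 108, 51.4 and 615 CPM over 6 genes, of which 2, 1 and 5 reached 10 CPM. Luminal markers summed to 492, 391 and 779 CPM over 7 genes, of which 6, 4 and 5 reached 10 CPM, and their median log2 ratio to PDPN+ cells was 0.72 in CD36+ cells and -1.01 in double-negative cells. The 7 immune markers summed to 6.37, 1.66 and 7.34 CPM and the 4 adipocyte markers to 3.95, 3.51 and 2.72 CPM, with Adipoq at 0 counts in each library.

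The genes whose pattern over the 3 libraries lay closest to a member were found by the distance between centred log2 levels, over 2708 protein-coding genes whose highest level was 100 CPM or more. With 3 libraries this describes 3 points only. Closest to Kdr were the endothelial junction gene Jam2 (distance 0.0465), at 796, 612 and 13.0 CPM, the interferon-induced GTPase gene Iigp1 (0.113) and the lipopolysaccharide coreceptor gene Cd14 (0.120). Closest to Flt1 were Cd93 (0.105), Gimap9 (0.145) and Ets1 (0.189). Closest to Nrp1 were Kctd12 (0.0566), Igfbp4 (0.0700) and Mef2a (0.0832). Closest to Vegfa were the desmosomal gene Dsp (0.153), at 55.9, 47.2 and 313 CPM, Smad3 (0.183) and Ccm2 (0.219).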

How the data were processed

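Each library came as 1 table, in which the authors deposited estimated counts, TPM and length columns by gene. Salmon 0.9.1 and the build mm10 are named in the submitters' processing notes. Neither annotation release nor strand setting is stated in the sources used here. Per the labels' protocols, a low-input and a ribosomal-depletion kit, and the NextSeq and NovaSeq instruments, were used. The labels do not tie them to libraries, so kit, instrument and population cannot be told apart.

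The deposited estimated counts were rounded and scaled by TMM over the 3 libraries (edgeR 4.0.16, R 4.3.3). Log2 ratios used a prior count of 2, and intervals were Clopper-Pearson (scipy 1.17.1, Python 3.11.15). With 1 library per population no test was possible. Against 0 counts a floor of 3 counts was used. Names and coordinates came from GENCODE M21, promoters of all 9 members from RefSeq. The ratio calculation was tested on simulated data with counting noise only and far fewer changed genes than in these libraries. It was not tested at differences as broad as theirs.

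The deposited length column lay below the shortest annotated transcript for 47.2% to 48.3% of genes with several transcripts and over 500 reads. It was therefore replaced in the text by the length recovered from counts and TPM, chosen after seeing the data. The constant behind it varied by at most 0.00200% between single-transcript genes.

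The members and lists were chosen with earlier results of these data known. The genes named were the 9 members, Vegfd, up to 4 genes per list with the highest mean level, up to 3 per direction with the largest ratio of the CD36+ to the PDPN+ library, and 3 nearest genes for each of 4 members. Cell type markers and genes marked so were named outside this rule. A single gene of the signal transduction list is not reported here by name.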

Additional observations from a re-analysis of the deposited data

How the results depend on the processing

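Every direction of the 9 members in the 3 comparisons held under 7 alternatives (total-count, upper quartile and RLE scaling, TMM from genes with at least 10 counts in every library, deposited TPM, a prior count of 0.5 and unrounded counts), and 53 of 189 such values left the counting interval. These settings reuse the same libraries, and their shifts were small beside the larger ratios, so most directions could hardly turn. Vegfb, CD36+ over PDPN+, had 1 against 0 counts, so its direction cannot be read. Relative to TMM and before the prior count, total counts moved log2 ratios against the PDPN+ library by -0.40 (CD36+) and -0.23 (double-negative). Upper quartile scaling moved them by 0.27 and 0.28. With the prior count, members with few counts in a library moved less. Vegfc, CD36+ over PDPN+, went from 8.32 to 8.06 under total counts. TPM moved the median of all genes by -0.48 and -0.36. The calls lost were Nrp1, double-negative over PDPN+, under total counts and TPM, and Vegfc, CD36+ over PDPN+, by TPM, where CD36+ cells held under 10 TPM.

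The median log2 ratio of the members, CD36+ over PDPN+, was 4.31, and 3.90 under total counts, 4.58 under upper quartile and 3.59 by TPM. For double-negative over PDPN+ it was 4.55, and 3.17 by TPM.

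Over the 6 pathway lists, CD36+ against PDPN+ gave 41 genes higher and 4 lower of 94 tested, where 15.1% and 17.6% of all genes were. The 4 became 8 under total counts, 7 by TPM, 16 at 2-fold, 12 with a minimum of 1 CPM and 13 with none. Double-negative against PDPN+ gave 38 higher and 7 lower of 92 (14.9% and 19.3% of all genes), and the 7 became 4 under upper quartile and by TPM, 17 at 2-fold, 12 at 1 CPM and 13 with no minimum. CD36+ against double-negative gave 5 higher and 4 lower of 94 (12.2% and 11.9% of all genes). The 5 became 2 under total counts, 1 by TPM, 28 at 2-fold, 9 at 1 CPM and 10 with no minimum, and the 4 became 12, 11 and 12 at 2-fold, 1 CPM and no minimum. The members in that comparison were 0 and 0, with 2 higher and 1 lower at 2-fold and 1 lower, Vegfb, with no minimum. The cause of these moves was not tested beyond the construction of each setting.

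The Flt1 share of the receptors in the CD36+, double-negative and PDPN+ libraries was 75.5%, 74.2% and 86.8% by TPM. It was 76.1% and 64.8% by CPM in the CD36+ and PDPN+ libraries, and 83.4%, 80.8% and 91.8% by count over the length column. The Vegfa share of the ligands was 25.8%, 9.83% and 99.6% by TPM, 32.2%, 16.1% and 99.8% by CPM, and 60.8%, 35.4% and 99.9% over the length column. By the length column 2 members, Flt1 and Vegfb, were over 1.5-fold apart in length in each comparison with the PDPN+ library, and 1, Flt1, by the recovered length, where Vegfb had no value.

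No paired analysis was possible because each population had 1 library and the labels carry no replicate numbers. Low counts limit Vegfb throughout, and Vegfc and Pgf in the PDPN+ library, where they had 1 and 8 counts.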
